A study of Macaca mulatta with 16 samples.

Results

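The genes described here encode proteins of the spliceosome and heterogeneous nuclear ribonucleoproteins (hnRNPs), measured in heart tissue of rhesus macaques (Macaca mulatta). Members were all entries of the gene count table listed as protein coding whose symbol starts with SRSF, SNRP, SF3A, SF3B, HNRNP, LSM or PRPF, together with PPIH. This rule gave 76 of 19425 genes, of which 17143 were protein coding. They comprised 11 SRSF genes, 11 SNRP genes, 8 SF3A and SF3B genes, 19 HNRNP genes, 11 LSM genes, 14 genes in the set of PRPF genes and PPIH, and 2 LSMEM genes. The LSMEM genes encode membrane proteins and share only their first letters with the LSM genes.

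The study compared ways of extracting RNA from archived formalin-fixed, paraffin-embedded (FFPE) cardiac tissue. Method QE used the Qiagen AllPrep DNA/RNA FFPE kit with a changed ethanol wash after the paraffin was removed, and Method BL used the CELLDATA RNAstorm FFPE kit with a changed lysis step. The extraction protocol field of the Method BL samples names the kit of Method QE, whereas their titles, descriptions and method labels name the CELLDATA kit, and these were followed. Each of 8 animals gave 1 library per method, so that 8 Method QE libraries stood against 8 Method BL libraries from the same animals. By the study's account the hearts came from a macaque model in which the right ventricle works against raised pressure. The labels give neither the age, the sex nor any treatment of single animals, and do not say whether both libraries of an animal came from the same sections. Total RNA was depleted of ribosomal RNA and sequenced with a stranded kit, and reads were counted per gene, so levels describe whole genes and not single isoforms.

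Splicing removes introns from precursor messenger RNA, and the spliceosome that does this is built anew on each intron from small nuclear ribonucleoproteins (snRNPs). Sm and LSM proteins form rings around the small nuclear RNAs, the SF3A and SF3B complexes hold the branch point within the U2 snRNP, and PRPF proteins assemble, remodel and form the catalytic centre. SR proteins bind exons and help splice sites to be chosen, whereas hnRNPs coat precursor RNA and often work against such choices. In heart muscle, splicing switches of sarcomere and ion-handling genes accompany development and disease.

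Libraries held between 19291593 and 25690001 gene counts in Method QE and between 14999179 and 25807216 in Method BL. Genes of the mitochondrial genome took 27.4 to 44.4% of these counts in Method QE and 20.5 to 39.3% in Method BL. The members together took 0.343 ± 0.0385% of gene counts in Method QE and 0.407 ± 0.0662% in Method BL (mean ± SD, n = 8 each), and their share was lower in Method QE in 7 of 8 animals. All levels below are in CPM, counts scaled to the same library total, after TMM scaling, which fits 1 factor per library so that most genes centre on no difference. On this scale the median log2 fold change of all genes tested was 0.004, with Method QE over Method BL throughout. Summed cardiomyocyte markers (6 of 8 listed were tested, with MYH6 and TNNI3 not analysed here) reached 95968 to 162326 CPM in Method QE and 63638 to 153728 CPM in Method BL. TTN made up most of this sum, with a log2 fold change of -0.02, and ACTC1 had -0.04. MYL2 had 0.36, MYH7 0.33 and both MB and TNNT2 0.25. None of these markers passed the threshold (edgeR adjusted p from 0.183 to 0.973). Summed fibroblast markers ranged from 716 to 4412 CPM in Method QE and from 684 to 6476 CPM in Method BL, endothelial markers from 459 to 780 CPM in Method QE and from 394 to 671 CPM in Method BL, and leukocyte markers from 74.1 to 225 CPM in Method QE and from 61.2 to 326 CPM in Method BL. Of the single markers outside muscle, PECAM1 had a log2 fold change of 0.36, CD3E 0.58 (higher in Method QE in 8 of 8 animals) and the erythrocyte gene ALAS2 1.16, with edgeR adjusted p from 0.112 to 0.128. ALAS2 was the only 1 of 5 listed erythrocyte genes tested. Other markers had values below 0, with COL1A1 at -0.69 (SE 0.57), COL1A2 at -0.55 (SE 0.44) and COL3A1 at -0.52 (SE 0.41). COL1A1, COL1A2 and COL3A1 were each higher in Method QE in 3 of 8 animals. LUM and CLDN5 both had -0.10, and CD68 had -0.04. None of these passed the threshold (edgeR adjusted p from 0.544 to 0.935). Values above 0 were found for 4 of 6 cardiomyocyte, 4 of 5 endothelial, 2 of 6 fibroblast and 5 of 6 leukocyte markers. Of all 14165 genes tested, 7179 had values above 0. The part of these markers in the results below was not tested. In bulk tissue, fewer cells of a type and less RNA per cell cannot be told apart.

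Of the 76 members, 74 passed the filter on low counts and were tested. LSMEM1, with 73 counts over all 16 libraries, did not pass. SNRPC, a protein of the U1 snRNP that helps it to read the start of an intron, did not pass either, with 2.37 to 24.3 counts in Method QE libraries and 1.31 to 15.0 counts in Method BL libraries. A separate protein coding entry of 735 bases on chromosome 8, ENSMMUG00000045425, carries the same gene name in the reference table and held 234 to 459 counts in Method QE and 207 to 399 counts in Method BL. Over 496 aligned bases, this entry matched the SNRPC coding sequence at 491 (99.0%), without a gap. A stretch of the coding region, bases 163 to 312 of the RefSeq coding sequence used, is shown because it is nearly the same in both. Both runs of 150 bases are given 5′ to 3′ from the Mmul_10 genome (RefSeq), with SNRPC lying on the minus strand at chr4:134706513-134722153 and the copy stretch on the plus strand at chr8:139358420-139358569. Capitals mark the only mismatch between them:
SNRPC: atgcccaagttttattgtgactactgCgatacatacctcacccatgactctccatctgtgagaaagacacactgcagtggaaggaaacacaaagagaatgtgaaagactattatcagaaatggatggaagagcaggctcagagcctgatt
ENSMMUG00000045425: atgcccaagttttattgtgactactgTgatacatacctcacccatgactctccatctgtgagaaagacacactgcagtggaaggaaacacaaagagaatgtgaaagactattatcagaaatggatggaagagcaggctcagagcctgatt

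The level of SNRPC is therefore uncertain here. Reads may likewise be shared for HNRNPA1, whose coding sequence matched the entry named HNRNPA1L2 at 950 of 958 aligned positions (99.2%), and for SNRPD2, which matched an entry of 357 bases on chromosome X at 348 of 354 (98.3%). SRSF1, the founding SR protein, is listed by its identifier alone and so falls outside the rule. It had 174 to 201 CPM in Method QE (median 191) and 175 to 232 CPM in Method BL (median 210), with overlapping ranges and a log2 fold change of -0.12 (edgeR's quasi-likelihood test, Benjamini-Hochberg adjusted p = 0.353).

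Compared per kilobase of transcript, hnRNP genes took the 3 highest places. The order depends on the length used, the median over the RefSeq transcripts of a gene. HNRNPU, at 277 CPM, had 19.8 CPM per kilobase with a length of 13990 bases, and PRPF6 had no length. HNRNPK, which binds C-rich RNA, averaged 74.1 ± 6.49 CPM per kilobase in Method QE and 66.3 ± 4.72 in Method BL (SD, n = 8 each). HNRNPA2B1, a partner of HNRNPA1 in RNA packaging and transport, averaged 71.4 ± 8.35 CPM per kilobase in Method QE and 71.9 ± 5.31 in Method BL. HNRNPL, which binds CA repeats, averaged 67.4 ± 7.99 CPM per kilobase in Method QE and 63.2 ± 10.5 in Method BL. These neighbours in the order lay within their spread of each other. Next came SNRPN, the Sm paralog of SNRPB known from brain and heart, with 58.1 ± 10.9 CPM per kilobase in Method QE and 55.0 ± 12.4 in Method BL, whereas SNRPB itself had 9.50 ± 1.90 in Method QE and 10.2 ± 1.28 in Method BL. The ranges of these paralogs were far apart in both methods. By the mean over both methods HNRNPC, SRSF3 and LSM12 followed SNRPN, with ranges that overlapped its range and each other in both methods, and their order differed between methods. At the low end stood SRSF12 with 0.108 CPM per kilobase in Method QE and 0.146 in Method BL, and LSM11, a protein of the U7 snRNP that processes histone RNA, with 0.317 in Method QE and 0.496 in Method BL.

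**Figure D1:**
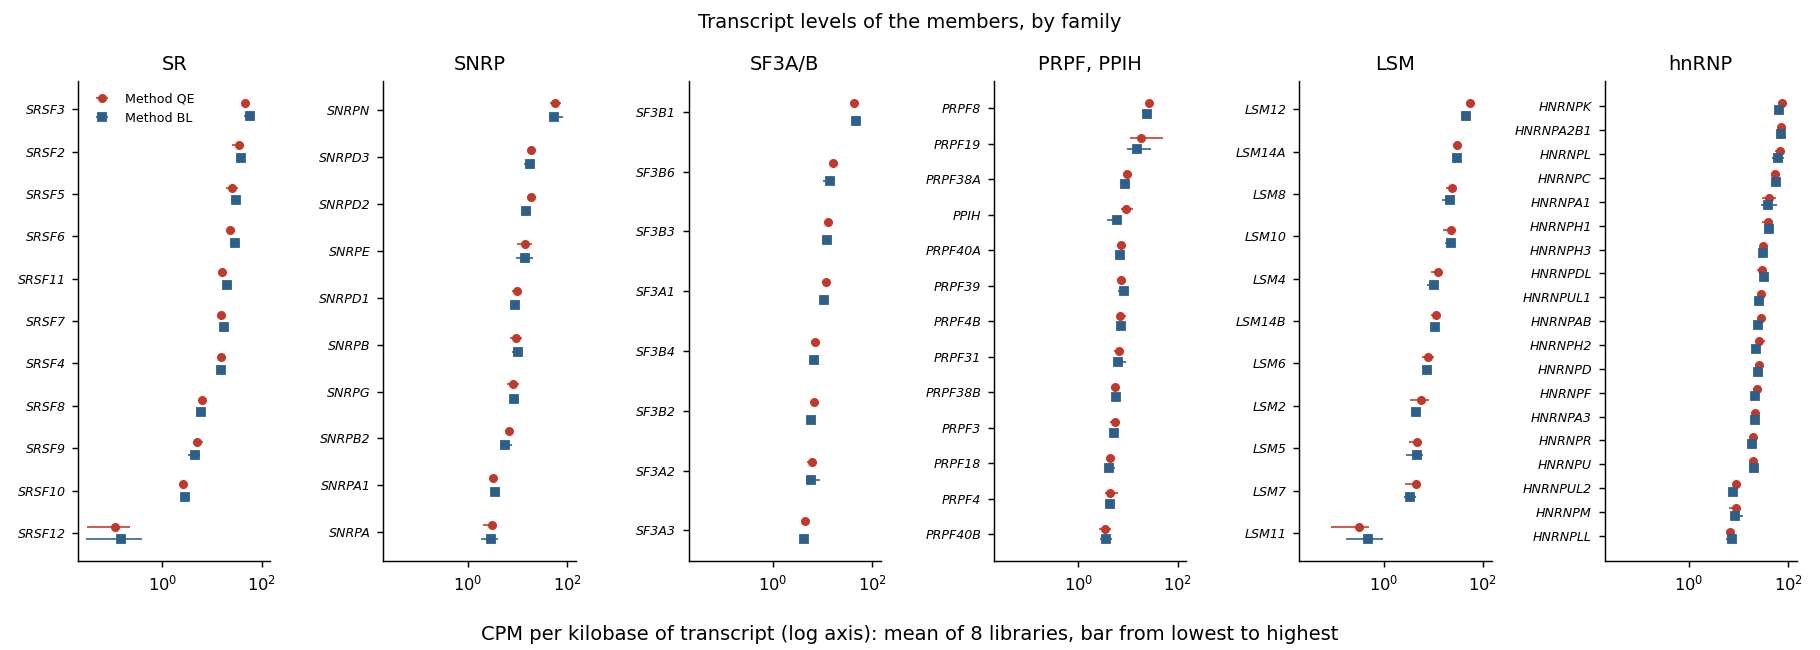
Mean level of each member with a known transcript length, in CPM per kilobase on a log axis, with 1 panel per family; circles are Method QE, squares Method BL, and bars run from the lowest to the highest of 8 libraries. SNRPN stands at 58.1 in Method QE and 55.0 in Method BL, above SNRPB at 9.50 in Method QE and 10.2 in Method BL.

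Between methods, the members past the threshold were 4 SR protein genes, all lower in Method QE, and PPIH, which was higher. At an adjusted p under 0.05, 4 of 74 members were lower in Method QE (SRSF3, SRSF5, SRSF6 and SRSF11), where 1.28% of all 14165 genes tested were lower. PPIH was the only member higher in Method QE, where 0.854% of all genes were higher, and 2.14% of all genes passed in either direction. Nothing is read from PPIH beside these shares, since the rule named it with its result known. At an unadjusted p under 0.05, 14 members were higher, PPIH among them, and 7 lower, which is 21 of 74 where 18% of all genes passed. DESeq2 called 3 members higher, again with PPIH among them, where it called 1.83% of all genes, and 4 lower, where it called 2.35%. The median log2 fold change of the members was 0.058, with 48 of 74 above 0, against 7179 of all 14165 genes tested. Per family, the medians were -0.173 for the SR proteins, 0.076 for the SNRP genes, 0.095 for SF3A and SF3B, 0.080 for the PRPF genes with PPIH, 0.051 for the LSM genes and 0.065 for the hnRNPs. Apart from the SR proteins these medians were small and moved with single animals: without animal rh2957 the PRPF median was 0.025 and the SNRP median 0.050, without animal rh2740 the SNRP median was 0.042, without animal I30 the hnRNP median was 0.020 and the LSM median 0.079, and without animal r12075 the LSM median was 0.108. Over all alternatives run, the medians of these 5 families lay between 0.010 and 0.200.

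**Figure D2:**
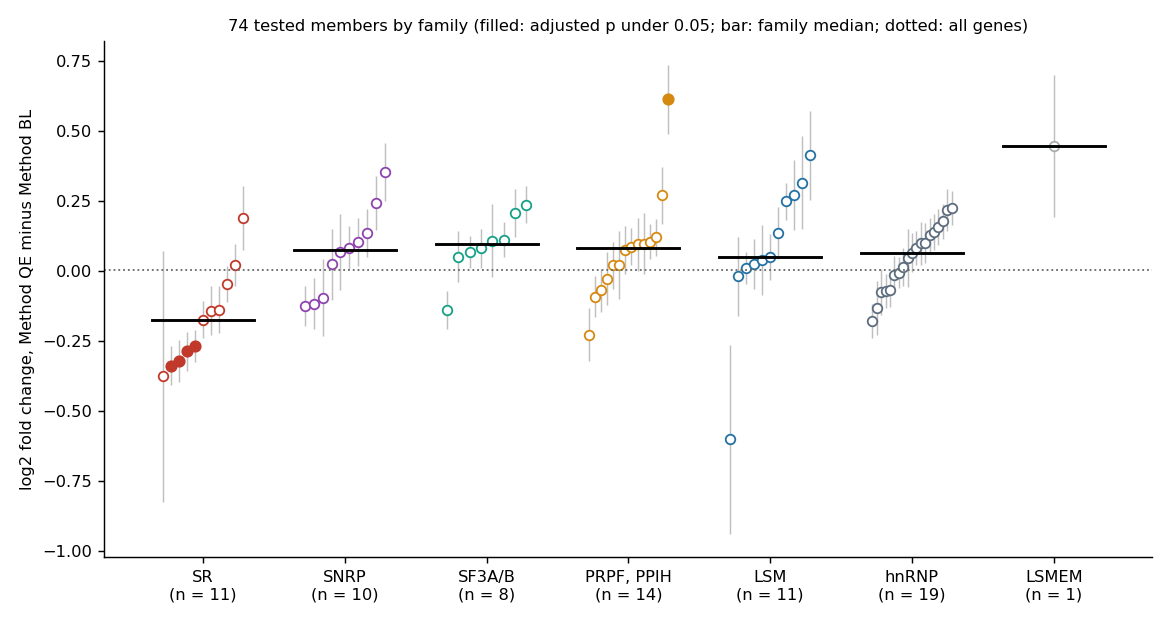
Log2 fold change, Method QE minus Method BL, of the 74 tested members by family, with 1 standard error; filled points have an adjusted p under 0.05, black bars are family medians and the dotted line is the median of all genes tested. The SR proteins centre at -0.173, and the other families of more than 1 gene centre above 0.

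Among the SR proteins, 4 of 11 tested genes fell and none rose. A log2 fold change below 0 was found for 9 of 11, against 6986 of all 14165 genes tested. SRSF3, a small SR protein that acts in splicing and in export of messenger RNA, had 115 CPM in the lowest Method QE library, a median of 132 and 146 CPM in the highest, against 122, 162 and 176 CPM in Method BL. Its log2 fold change was -0.27 (SE 0.06, edgeR adjusted p = 0.0339). The ranges overlapped, but within every animal the Method QE library had the lower level. SRSF3 lies at chr4:132843633-132854767 on the minus strand of Mmul_10, and its estimated counts were not whole in any of the 16 libraries. Fractional counts arise in this kind of estimate where reads fit more than 1 gene or transcript.

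SRSF6, an SR protein with 2 RNA recognition motifs, had 79.3, 81.3 and 107 CPM (lowest, median, highest) in Method QE and 86.2, 107 and 128 CPM in Method BL. Its log2 fold change was -0.32 (SE 0.07, edgeR adjusted p = 0.0428), and it was lower in Method QE in 8 of 8 animals. Of the Method QE libraries, 5 of 8 sat below the lowest Method BL library, and the library of animal r12075 was the highest of the 8. SRSF11, an SR-related protein that works at the end of the intron, had 44.3, 47.0 and 53.3 CPM in Method QE and 50.6, 60.6 and 67.8 CPM in Method BL. Its log2 fold change was -0.34 (SE 0.07, edgeR adjusted p = 0.0307), again lower in 8 of 8 animals, and the ranges overlapped only between 50.6 and 53.3 CPM. SRSF5, built like SRSF6, had 32.7, 41.8 and 56.0 CPM in Method QE and 40.5, 51.5 and 60.9 CPM in Method BL. Its log2 fold change was -0.29 (SE 0.07, edgeR adjusted p = 0.0494), and animal I30 was the 1 animal where Method QE was not lower. This call lay near the threshold: SRSF5 did not pass with median of ratios factors (adjusted p = 0.0535), with TMM factors fitted without the mitochondrial genome (adjusted p = 0.0513), with no filter on low counts (adjusted p = 0.0708), or in 7 of 8 fits that left out 1 animal (edgeR adjusted p from 0.0398 to 0.133).

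**Figure D3:**
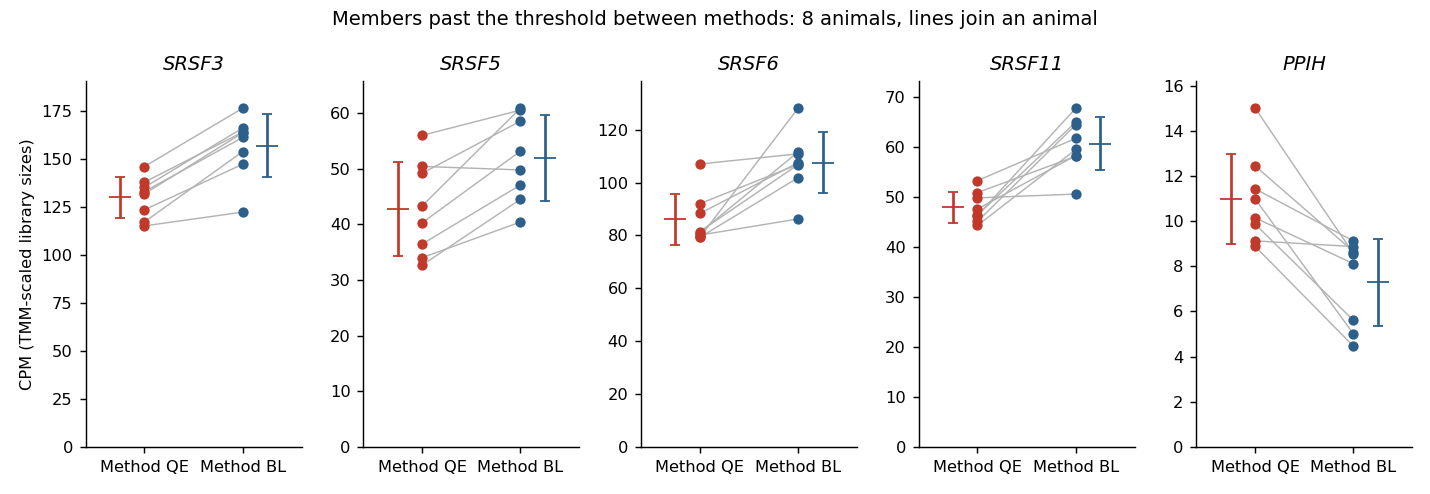
CPM of the 5 members past the threshold, Method QE left and Method BL right, with lines joining both libraries of an animal and mean ± SD at the side (n = 8). All lines of SRSF3, SRSF6 and SRSF11 run lower on the Method QE side, and all lines of PPIH run higher there.

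The other SR genes did not pass the test. SRSF7 had a log2 fold change of -0.17 (adjusted p = 0.191), SRSF10 and SRSF2 both had -0.14, SRSF4 had -0.05, SRSF8 0.02 and SRSF9 0.19 (edgeR adjusted p = 0.408). SRSF12 had -0.38 with a standard error of 0.45, at under 1.4 CPM in every library. Taken animal by animal, the median difference of the SR genes was below 0 in 8 of 8 animals, between -0.30 in animal rh2957 and -0.01 in animal r15089. No other family of more than 1 gene kept its median on one side of 0 in every animal apart from SF3A and SF3B, which stood above 0 in all 8. For comparison, 2.16% of all single genes were higher and 3.05% were lower in all 8 animals. Of the members, 6 were higher in all 8 (PPIH, LSM7, LSM12, HNRNPAB, HNRNPH2 and HNRNPUL2) and 3 were lower (SRSF3, SRSF6 and SRSF11). PPIH was named with its result known, so its place among the 6 is not set against the share of all genes.

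**Figure D4:**
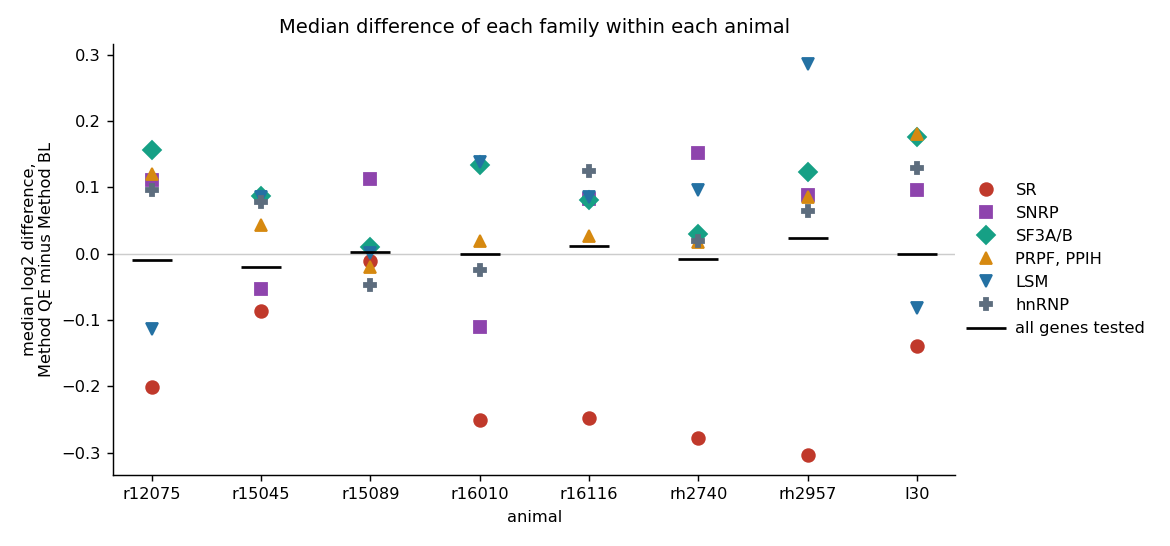
Median log2 difference, Method QE minus Method BL, of each family within each of the 8 animals; black dashes are the median of all genes tested. The SR median lies below 0 in every animal, from -0.30 in animal rh2957 to -0.01 in animal r15089.

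Other genes of the splicing pathway, which the rule does not reach, were read from a list of 80 genes, 75 of them tested. Of these, 1 was higher in Method QE and 2 were lower, where 0.854% of all genes were higher and 1.28% lower, so these counts lie near the background. Both lower genes stood in the group of SR-related proteins and SR kinases, whose median was -0.067 over 10 genes, with 3 above 0. The median difference of this group was below 0 in 6 of 8 animals, and above 0 in animals r12075 (0.111) and I30 (0.122). CLK1, a kinase that phosphorylates SR proteins, had 34.0, 45.4 and 63.1 CPM in Method QE and 50.5, 59.2 and 67.0 CPM in Method BL (log2 fold change -0.35, SE 0.08, edgeR adjusted p = 0.0339). SRRM2, a large scaffold of nuclear speckles, had 506, 653 and 1069 CPM in Method QE and 844, 908 and 1082 CPM in Method BL (log2 fold change -0.45, SE 0.10, edgeR adjusted p = 0.0458). Both were lower in Method QE in 8 of 8 animals, with overlapping ranges. CWC15, a component of the Prp19-related complex, was higher with a log2 fold change of 0.43 (SE 0.10, edgeR adjusted p = 0.0468), with 13.9, 17.0 and 25.9 CPM in Method QE against 10.4, 12.5 and 17.1 CPM in Method BL. Medians of the other groups were 0.113 for the catalytic core and Prp19 complex (23 genes), 0.054 for snRNP proteins outside the rule (18), 0.143 for the exon junction complex (4), 0.034 for the SMN complex (9) and -0.019 for recognition of the branch point and intron end (11).

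PPIH is a cyclophilin, a proline isomerase bound to the tri-snRNP. It was named by the rule with its result in these data already known, so its values are a description. It had 8.88, 10.6 and 15.0 CPM in Method QE and 4.46, 8.34 and 9.12 CPM in Method BL. Its log2 fold change was 0.61 (SE 0.12, edgeR adjusted p = 0.0260), and Method QE was higher in 8 of 8 animals, though by little in animal rh2957. In the deposited annotation PPIH (chr1:181854442-181898467) shares 19956 bases of the same strand with YBX1 (chr1:181854270-181874397), an abundant RNA-binding protein gene, whereas their RefSeq spans do not overlap. PPIH counts were not whole in 15 of 16 libraries, and PPIH made up 7.64 to 13.9% of the summed CPM of both genes in Method QE and 4.68 to 9.35% in Method BL, higher in Method QE in 7 of 8 animals. YBX1 itself had a log2 fold change of 0.19 (edgeR adjusted p = 0.134). How far reads of YBX1 enter the PPIH value was not tested.

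Of the SNRP genes, none of 10 tested passed with edgeR (2 before adjustment, where 18% of all genes passed). DESeq2 called 0, where it called 1.83% of all genes higher and 2.35% lower. SNRPD2, an Sm ring protein, had the largest value with 8.78, 10.6 and 12.2 CPM in Method QE and 6.82, 8.41 and 9.58 CPM in Method BL (log2 fold change 0.35, SE 0.10, edgeR adjusted p = 0.101). SNRPA1, a U2 snRNP protein, had the lowest with 12.5, 13.4 and 15.5 CPM in Method QE and 12.7, 14.9 and 17.8 CPM in Method BL (log2 fold change -0.13, edgeR adjusted p = 0.387). SNRPN differed by 0.08 on the log2 scale (SE 0.08). Ranges overlapped for all 3 genes.

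None of the 8 SF3A and SF3B genes passed with edgeR (2 before adjustment, where 18% of all genes passed). DESeq2 called 0, where it called 1.83% of all genes higher and 2.35% lower. Of the 8 genes, 7 had a log2 fold change above 0, against 7179 of all 14165 genes tested. SF3B2 had 21.9, 25.3 and 26.7 CPM in Method QE and 17.7, 21.0 and 23.8 CPM in Method BL (log2 fold change 0.24, SE 0.06, edgeR adjusted p = 0.0764). SF3B1, the scaffold that encloses the branch point, was the exception with 162, 179 and 207 CPM in Method QE and 172, 208 and 223 CPM in Method BL (log2 fold change -0.14, SE 0.07, edgeR adjusted p = 0.304). Subunits of this complex had values of both signs, with overlapping ranges.

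Apart from PPIH, no PRPF gene passed. Of the 14 genes in this set, 3 passed before adjustment, PPIH among them, where 18% of all genes passed. DESeq2 called 1 of the 14, PPIH, where it called 1.83% of all genes higher and 2.35% lower. PRPF8, the protein at the catalytic centre, had 183, 189 and 228 CPM in Method QE and 167, 179 and 192 CPM in Method BL (log2 fold change 0.10, SE 0.06, edgeR adjusted p = 0.399). PRPF39, a U1 snRNP partner, had 17.1, 20.5 and 24.7 CPM in Method QE and 18.4, 23.4 and 30.1 CPM in Method BL (log2 fold change -0.23, SE 0.09, edgeR adjusted p = 0.227). The groups overlapped for both.

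None of the 11 LSM genes passed with edgeR (3 before adjustment, where 18% of all genes passed). DESeq2 called 1, LSM12, where it called 1.83% of all genes higher and 2.35% lower. The 6 measured genes of the ring that binds the end of U6 RNA (LSM2 and LSM4 to LSM8) had a median log2 fold change of 0.202, with 5 of 6 above 0. Their transcripts were short, with a median of 709 bases. All genes tested with transcripts under 1000 bases had a median log2 fold change of 0.180, so the ring lay near this background. Whether the ring differs from other short genes was not tested. LSM3, also of this ring, is listed by its identifier and had 18 counts over all libraries. LSM7 had 1.43, 2.43 and 2.74 CPM in Method QE and 1.37, 1.81 and 2.41 CPM in Method BL (log2 fold change 0.41, SE 0.16, edgeR adjusted p = 0.194). LSM12, a cytoplasmic LSM-domain protein, had 50.2, 56.5 and 68.2 CPM in Method QE and 46.0, 47.7 and 52.5 CPM in Method BL (log2 fold change 0.25, edgeR adjusted p = 0.0647). LSM14A, a protein of cytoplasmic P-bodies, had the highest mean CPM of the LSM genes, though not per kilobase, and differed by 0.01 (SE 0.06). LSM11 differed by -0.60 (SE 0.34) at under 1.8 CPM in every library. LSMEM2 had a log2 fold change of 0.44 (SE 0.25, edgeR adjusted p = 0.382).

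None of the 19 hnRNP genes passed with edgeR either (6 before adjustment, where 18% of all genes passed). DESeq2 called 1, HNRNPAB, where it called 1.83% of all genes higher and 2.35% lower. Log2 fold changes of the family lay between -0.18 and 0.22. HNRNPAB, a binder of single-stranded RNA and DNA, had 45.4, 49.6 and 54.3 CPM in Method QE and 36.4, 41.9 and 50.8 CPM in Method BL (log2 fold change 0.22, SE 0.06, edgeR adjusted p = 0.0695). HNRNPDL, a relative of the AU-rich element binder HNRNPD, had 78.6, 93.2 and 116 CPM in Method QE and 93.0, 106 and 121 CPM in Method BL (log2 fold change -0.18, SE 0.06, edgeR adjusted p = 0.144). HNRNPU, a nuclear scaffold protein and the member with the highest mean CPM, had 254, 268 and 293 CPM in Method QE and 256, 284 and 297 CPM in Method BL (log2 fold change -0.07, SE 0.06). The median standard error in this family was 0.065, and all 3 of these genes overlapped between methods.

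Fold changes of the members were lower for longer transcripts. Across 73 members with a RefSeq transcript, Spearman's rho with transcript length was -0.35 and with GC content 0.35, against -0.25 and -0.07 across 11520 genes. Genes are not independent replicates, and all share the same 16 libraries. Within 2000 to 4000 bases, the 7 SR genes had a median of -0.268, the 24 other members 0.063 and all 4779 genes 0.003. With an offset for length and GC content, SRSF11 was the only member past the threshold (log2 fold change -0.32, edgeR adjusted p = 0.0422). The SR median was then -0.191. Calls over all 11520 genes were 26 with this offset and 88 without it (3 of them members), against 303 of 14165 in the main fit.

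The calls between methods rested on the pairing and on most animals. Without the animal as a block no member passed, with adjusted p between 0.0626 and 0.499 for the 5 genes. Of all 14165 genes, 5 passed in that fit, against 303 with the block. Leaving out both libraries of 1 animal gave 0 calls without animal r15089, r16010, r16116 or rh2740 (16 to 19 members at an unadjusted p under 0.05), and 2 to 4 calls without any other animal. Calls over all genes fell too, to 44, 59, 74 and 37 without these animals in turn, and were 186 to 355 without any other animal. Directions did not change: in these fits the log2 fold change of PPIH ran from 0.54 to 0.70, of SRSF3 from -0.29 to -0.25, of SRSF5 from -0.33 to -0.26, of SRSF6 from -0.36 to -0.27 and of SRSF11 from -0.38 to -0.31. The names of the Method BL libraries end in B for 5 animals and in R for 3, for a reason not given. The SR median was -0.207 among the 5 animals and -0.095 among the 3 animals, with no member past the threshold in either set. Of all genes, 49 passed among the 5 animals and 0 among the 3 animals.

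Few members differed between animals. The test of animal, in the same fit, passed for 4 of 74 members, where 31.5% of all genes passed (DESeq2: 7 members, against 39.2% of all genes). In the band of 20 to 400 CPM, where 41 members lie, it passed for 39% of 4912 genes and for 4 of the 41 members. The median SD between animals there was 0.118 on the log2 scale for the members and 0.199 for all genes. From 5 to 20 CPM, 0 of 25 members passed (1 at an unadjusted p under 0.05), with an SD of 0.146 for the members and 0.238 for all genes.

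HNRNPA1, which often represses exons, and PRPF19 had the smallest p between animals, in an order that changed with the alternatives. For HNRNPA1 the adjusted p was 0.000152 (edgeR F test over animals). Animal r12075 had 99.0 CPM in Method QE and 106 CPM in Method BL, and animal rh2740 had 100.2 in Method QE and 98.9 in Method BL. Animal r16116, at the low end, had 53.1 CPM in Method QE and 52.2 CPM in Method BL. Both libraries of these animals gave like values, and the highest animals stood well apart from the lowest. The near-identical entry HNRNPA1L2 also differed between animals (edgeR adjusted p = 0.00746), and how reads divide between them was not tested.

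PRPF19, the ubiquitin ligase that gives the Prp19 complex its name, was high in 1 animal. Animal rh2957 had 102 CPM in Method QE and 56.6 CPM in Method BL, whereas the other 7 animals had 21.2 to 31.2 CPM in Method QE and 19.2 to 37.8 CPM in Method BL (edgeR adjusted p between animals = 0.000168). Without animal rh2957 the difference between animals still passed (adjusted p = 0.0208). SNRPN was highest in animal r16010, with 124 CPM in Method QE and 135 CPM in Method BL (edgeR adjusted p between animals = 0.0193), and did not pass without that animal (adjusted p = 0.352). SRSF5 also differed between animals (edgeR adjusted p = 0.0160), with 56.0 CPM in Method QE and 60.6 CPM in Method BL in animal r12075 and 34.0 CPM in Method QE and 40.5 CPM in Method BL in animal r16116. It did not pass without animal r16116 (adjusted p = 0.0535).

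**Figure D5:**
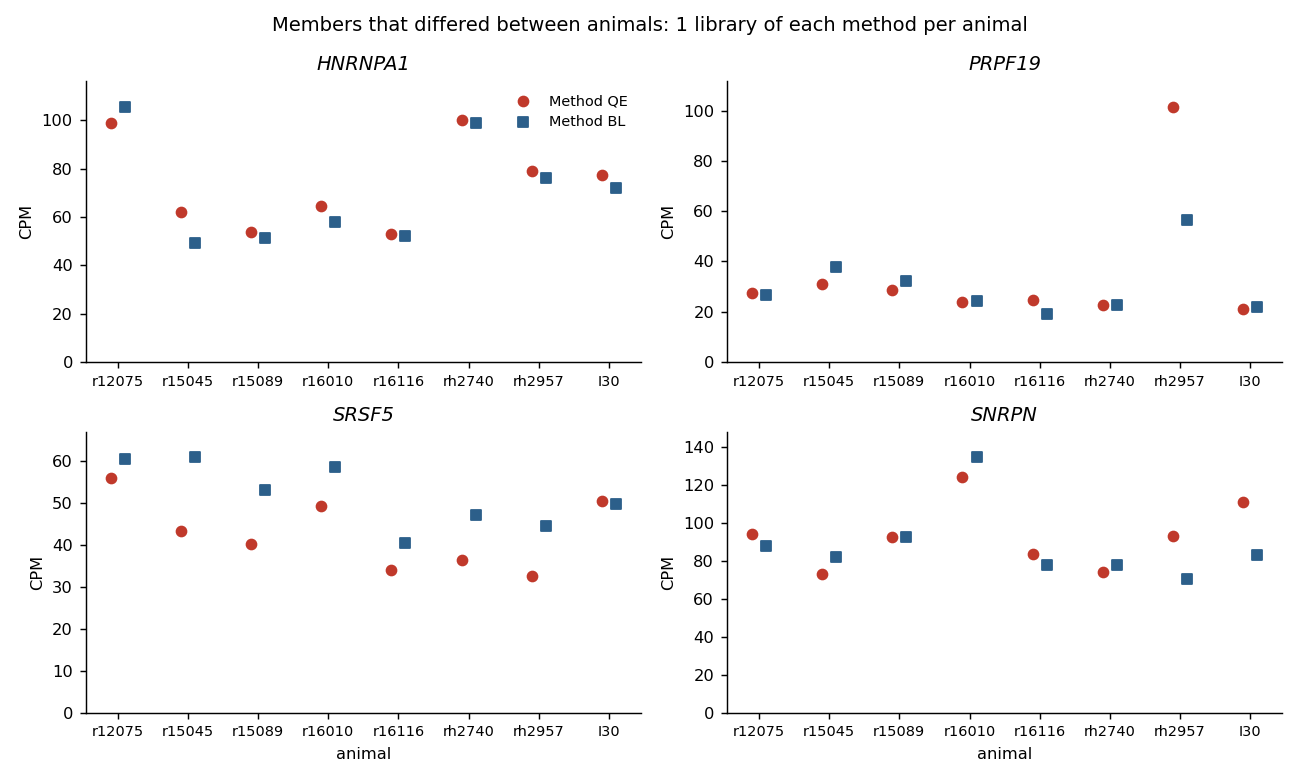
CPM of the 4 members that differed between animals, with Method QE as circles left of Method BL as squares for each of 8 animals. Both libraries of animals r12075 and rh2740 are high for HNRNPA1, and both of animal rh2957 are high for PRPF19.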

How the data were processed

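RNA from FFPE cardiac tissue of 8 macaques was sequenced after each of 2 extraction methods with the Illumina Stranded Total RNA kit. Per the labels the reads were aligned to Mmul_10 with STAR 2.7.8a in Partek. The authors deposited estimated counts per gene, not normalized. Here 76.7% of the values were whole within 1e-06, and no gene summed to under 10. 1 entry broken over 3 lines was joined. Whether counting used strand is not given in the sources used here.

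Counts were rounded and tested with edgeR 4.0.16 in R 4.3.3 (filterByExpr, TMM, quasi-likelihood F test, animal as a block and method, Benjamini-Hochberg over 14165 genes, threshold 0.05). Pairs were formed from the animal that each library name gives, since replicate numbers order animals differently per method. As a check, the correlation between methods across the 8 animals had a median of 0.50 over all genes. DESeq2 1.42.0, limma 3.58.1, other scaling and filters, a length and GC offset, and subsets of animals were alternatives. Nothing says that the libraries are more than 1 extraction per animal, so p-values measure the spread between these pairs. Transcript lengths came from RefSeq annotation of Mmul_10 (73 tested members). The model was tested on simulated data. Members and lists were chosen with earlier results of these data known. Named were members past the threshold, PPIH, and the highest, lowest and most abundant (by mean CPM) of each family. The 3 with the smallest p between animals and pathway genes past the threshold were named as well. Others were named after their values were seen.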

Additional observations from a re-analysis of the deposited data

Results flagged for a closer look

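In 48 groups of 8 values (CPM of 23 named members and the members' share of counts, in each method), 7 had 1 library far from the rest. The flag is set to about 1 in 20 independent groups by chance. These groups share libraries, and some members, such as PRPF19, were named for their values, so the 7 are not compared with that rate. PRPF19 was 102 CPM in the Method QE library of animal rh2957, against 21.2 to 31.2 CPM in the other 7. PRPF8 was 228 CPM in the same library, against 183 to 198 CPM. SRSF12 was 1.35 CPM in the Method BL library of that animal, against 0.0967 to 0.642 CPM. SNRPN was 135 CPM in the Method BL library of animal r16010, against 70.4 to 92.4 CPM. SRSF6 was 107 CPM in the Method QE library of animal r12075, against 79.3 to 92.0 CPM. LSM7 was 1.43 CPM in the Method QE library of animal r16116, against 2.31 to 2.74 CPM. HNRNPU was 256 CPM in the Method BL library of animal r15045, against 280 to 297 CPM.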

How the results depend on the processing

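With no replicate block, and so without the pairing by animal, 0 members were higher and 0 lower (10 and 5 at an unadjusted p under 0.05). DESeq2 called 3 higher, adding HNRNPAB (adjusted p = 0.0498) and LSM12 (adjusted p = 0.0314) to PPIH, and 7 members that differed between animals. With no filter on low counts 1 member was lower. With the length and GC offset 0 were higher and 1 lower, and on the same genes without the offset, a fit chosen after seeing the data, 2 were lower. Among animals whose Method BL library ends in B 0 were higher and 0 lower (11 and 7 unadjusted), and among those ending in R 0 and 0 (1 and 1 unadjusted), with 1 member differing between animals. Leaving out each animal gave 0 to 1 higher, 0 to 3 lower and 3 to 5 that differed between animals. Calls over all genes changed too: 303 of 14165 in the main fit, 5 with no replicate block and 592 with DESeq2. With no filter 262 of 19425 passed, with the offset 26 of 11520, and on the same genes without it 88. Among B animals 49 passed and among R animals 0, and leaving out each animal gave 37 to 355. The cause of these changes was not tested, except that subsets hold fewer animals. Reversed signs, none past the threshold, were HNRNPU with the offset (0.047), LSM14A with upper quartile factors (-0.013), without animal r15045 (-0.0085, with 0.032 the highest value when leaving out an animal) and among R animals (-1.02e-05), PRPF19 without animal rh2957 (-0.016, with 0.15 the highest) and SRSF12 among R animals (0.44). The members' median kept its sign in all alternatives run, and the SR median stayed between -0.207 and -0.095. For single named members, 393 values kept direction and side of the threshold, 55 lost the call, 1 gained it and 6 reversed. Only the 5 members past the threshold could lose a call, so all 55 fall on them, and most of the 393 belong to members not past it. When leaving out each of 8 animals, PPIH and SRSF11 kept the call in 3 fits, SRSF3 and SRSF6 in 2 and SRSF5 in 1. Depth limits SRSF12, LSM11 and LSMEM2, at around 1 CPM.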
